A study of Mus musculus with 14 samples.

Results

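Scavenger receptors are cell surface and lysosomal proteins that bind and take up modified lipoproteins, fatty acids, microbial surfaces and debris of dead cells. The 7 genes described here were chosen by name. *Msr1*, *Marco* and *Colec12* are of class A, whose members have a collagen-like stalk. *Cd36*, *Scarb1* and *Scarb2* are of class B, whose members cross the membrane at both ends, and *Olr1* is of class E, with a C-type lectin domain. All 7 were found among the 33939 genes with values. In the injured brain, microglia and macrophages clear myelin and cell debris, and scavenger receptors are among the proteins they use for uptake, while class B members also move fatty acids and cholesterol across membranes.

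CD11b+ microglia/macrophages were sorted with magnetic beads at 3 days after a controlled cortical impact, a model of traumatic brain injury (TBI), and Smart Seq v4 libraries of their RNA were sequenced. The contralateral (CL) and the ipsilateral, injured (IL) hemispheres of male C57BL/6 mice, 8 to 12 weeks old, were collected separately. Ctrl mice carried *Cx3cr1-CreER*+/-, and cKO mice carried *Cx3cr1-CreER*+/- with a floxed gene on both alleles. All mice of both genotypes had received tamoxifen and all had TBI, so the CL hemispheres are not uninjured brains. *Cx3cr1* drives the recombinase, and a wait after tamoxifen let unrecombined cells replace blood monocytes, so IL cells that came from blood may not carry the deletion. Each hemisphere had 4 libraries from Ctrl and 3 from cKO, 14 in all from 8 mice, and within a group each library came from a different mouse. Ctrl mice 3541, 3545, 3546 and 3551 and cKO mice 791 and 3592 gave both hemispheres, cKO mouse 784 gave an IL library only, and cKO mouse 788 gave a CL library only.

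The values are CPM, the reads of a gene per 1e+06 reads assigned to genes. The reads behind a library ranged from 12.2 to 41.6 M, with the fewest in Ctrl IL 3546 and 16.1 M in Ctrl CL 3551, and the members held from 0 reads (*Marco*) to 25835 reads (*Msr1*) in a library. The 8 microglia markers summed to between 18650 and 38023 CPM in every library, and the 6 neuron markers to at most 20.9 CPM. Sums of the other lists were 172 to 814 CPM for border macrophages, 176 to 310 CPM for oligodendrocytes, 122 to 225 CPM for astrocytes, 86.6 to 371 CPM for endothelial cells and 35.0 to 169 CPM for fibroblasts and mural cells. Microglia marker sums were 33468 to 38023 CPM in CL and 18650 to 22982 CPM in IL libraries, with 5 of the 8 markers called lower in IL in Ctrl and 6 of 8 in cKO. The 8 infiltrating monocyte markers had sums between 121 and 701 CPM in CL and between 581 and 870 CPM in IL for Ctrl, and between 113 and 315 CPM in CL and 568 and 783 CPM in IL for cKO, with 4 of 8 called higher in IL in Ctrl and 5 of 8 in cKO, and none of these markers was at 0 in any library. Single genes carried much of these sums. In Ctrl, *Fn1* was at 244 to 686 CPM in IL, and *Chil3* reached 538 CPM in CL. *Ly6c2* reached 61.6 CPM in Ctrl CL and 20.9 CPM in Ctrl IL. Neutrophil markers of Ctrl summed to 467 to 6106 CPM in the CL and 145 to 844 CPM in the IL hemispheres, and those of cKO to 459 to 1307 CPM and 190 to 294 CPM, with 0 of 8 called by limma in Ctrl (6 at an unadjusted p under 0.05) and 5 of 8 called lower in IL in cKO. Marker sums of several cell types therefore also differed between the hemispheres compared below, and their part in the IL against CL differences was not tested. The sums did not move alike in every mouse. In Ctrl mouse 3541 the infiltrating monocyte sum was 701 CPM in CL and 585 CPM in IL. In such sorted bulk samples, fewer cells of a type and less RNA per cell cannot be told apart.

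A gene was called with a limma adjusted p at or under 0.05, by Benjamini-Hochberg over all genes tested, and a fold change of at least 1.2, and fold changes are of log2(CPM + 1) after scaling. Between IL and CL hemispheres of Ctrl mice, 3 of the 7 members were called higher (*Msr1*, *Cd36* and *Olr1*) and none lower, against 4.18% of the 16376 genes tested called higher, 3.33% lower and 7.52% in either direction. In the cKO mice, 4 of 7 were called higher (*Msr1*, *Cd36*, *Olr1* and *Scarb2*) and none lower, where 12.3% of 16758 genes were called higher, 10.8% lower and 23.1% in either direction. The median log2 fold change of the members was 0.61 in Ctrl and 0.49 in cKO, beside -0.03 and 0.01 over all genes tested. Between genotypes, limma called none of the members in either hemisphere, where 0.67% of 16873 genes were called in IL and 0.905% of 16570 in CL, and 1 member, *Colec12*, was at an unadjusted p under 0.05 in each, beside 9.25% of all genes in IL and 10.2% in CL. The plot of CPM by library gives all values of the members.

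**Figure D1:**
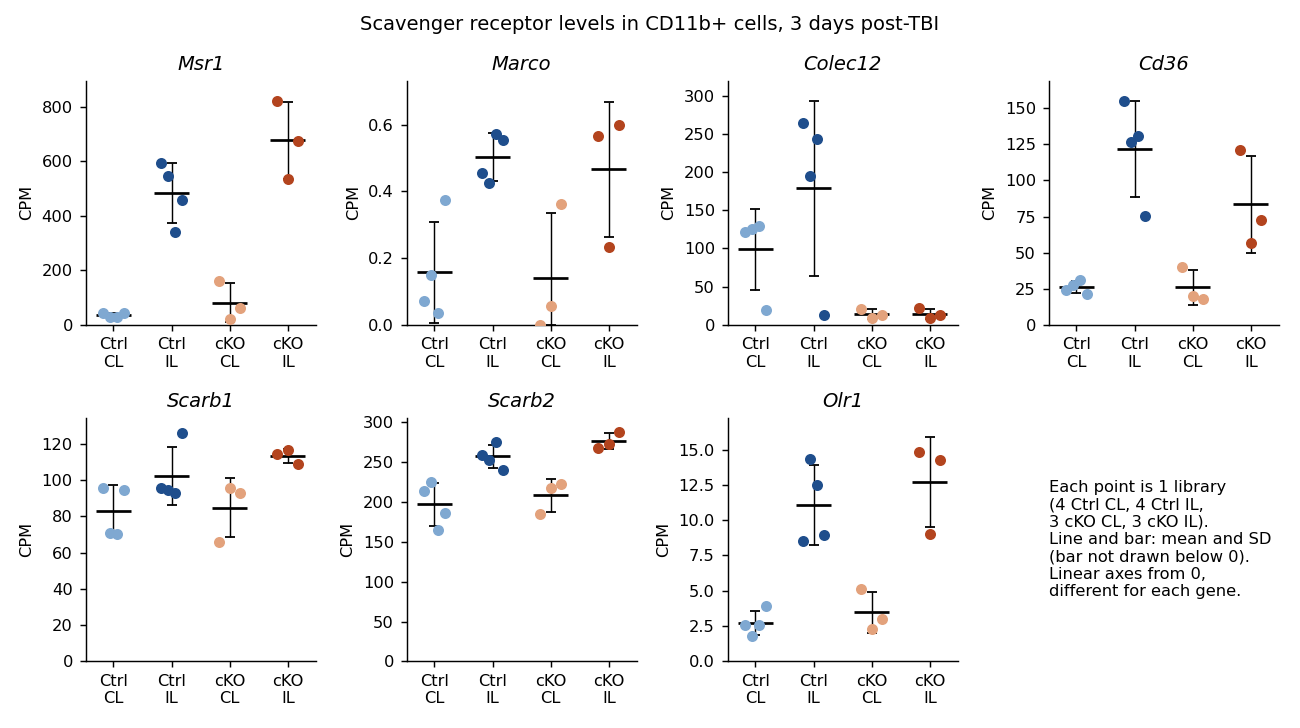
CPM of the 7 scavenger receptors (linear axes from 0, a different range for each gene) in the 4 groups, with 1 point for each library, and the mean and SD of each group as a line and a bar. *Msr1*, *Cd36* and *Olr1* are above all CL libraries in every IL library of the same genotype, and *Colec12* is high in the 3 Ctrl mice 3541, 3545 and 3546 and low in every other library.

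The promoter sequences of 3 members called higher in IL in at least 1 genotype are given next, so that their letters can be read beside their values. The RefSeq promoter table of GRCm38.p6 matched 4 of the 7 members, and *Msr1*, *Scarb1* and *Colec12* had no entry. Each sequence is the 250 bases before the RefSeq start, from 5′ to 3′ on the gene's strand, which is the minus strand in all 3 cases. *Olr1* (chr6:129507166-129507415) and *Cd36* (chr5:17835897-17836146) were called higher in IL in both genotypes, and *Scarb2* (chr5:92505658-92505907) was called higher in cKO. The RefSeq starts used for *Cd36* and *Scarb2* lie inside the gene spans given below. Capitals mark the matches to the motifs described after the sequences.
Olr1: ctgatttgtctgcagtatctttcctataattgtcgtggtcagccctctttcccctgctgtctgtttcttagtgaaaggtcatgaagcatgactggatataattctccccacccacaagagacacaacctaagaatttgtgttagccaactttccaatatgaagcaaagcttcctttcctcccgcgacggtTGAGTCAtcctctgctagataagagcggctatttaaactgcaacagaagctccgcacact
Cd36: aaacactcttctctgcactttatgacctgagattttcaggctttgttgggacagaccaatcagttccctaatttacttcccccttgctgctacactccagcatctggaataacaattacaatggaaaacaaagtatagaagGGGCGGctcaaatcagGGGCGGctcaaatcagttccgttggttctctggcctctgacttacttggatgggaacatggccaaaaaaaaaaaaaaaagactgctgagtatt
Scarb2: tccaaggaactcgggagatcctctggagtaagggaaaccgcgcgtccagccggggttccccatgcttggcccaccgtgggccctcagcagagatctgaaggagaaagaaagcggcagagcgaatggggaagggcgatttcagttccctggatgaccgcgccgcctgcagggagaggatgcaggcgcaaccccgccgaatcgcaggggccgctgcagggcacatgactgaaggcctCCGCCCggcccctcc

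The motifs were searched on both strands. *Olr1* held an AP-1 motif (TGANTCA, here TGAGTCA) from -60 to -54 relative to the start, a motif found in 6.75% of the 32851 promoters of the same length. *Cd36* held the GC box (GGGCGG, found in 32.7% of promoters) at -109 to -104 and again at -93 to -88, and *Scarb2* held it on the other strand (CCGCCC) at -15 to -10. The promoter of *Scarb2* was 65.6% GC, those of *Cd36* and *Olr1* were 43.2% and 45.2%, and the median over all promoters was 52.4%. The 250 bases before the start of *Marco* (chr1:120505025-120505274, minus strand, sequence not shown) held the PU.1 motif (GAGGAAG, in 10.6% of promoters) at -146 to -140. None of these 4 promoters held the kB motif (in 0.14% of promoters) or the TATA motif (TATAAA, in 12.4%). A match says only that the letters are present, and binding was not measured.

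*Msr1* (ENSMUSG00000025044, GRCm38 chromosome 8 from 39581685 to 39642673, minus strand) encodes the macrophage receptor for acetylated and oxidised low density lipoprotein and for many polyanions. Its level in Ctrl CL libraries was 43.3, 29.8, 28.9 and 41.9 CPM in mice 3541, 3545, 3546 and 3551, and 592, 543, 341 and 458 CPM in the IL libraries of the same mice. In cKO CL libraries it was 21.9, 60.1 and 159 CPM in mice 788, 791 and 3592, and in cKO IL libraries 535, 675 and 819 CPM in mice 784, 791 and 3592. Every IL library was above every CL library of both genotypes, and the highest CL value was that of cKO mouse 3592.

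The difference was the largest among the members. In Ctrl, *Msr1* averaged 36.0 ± 7.67 CPM in CL and 484 ± 110 CPM in IL (SD, n = 4 each), a log2 fold change of 3.79 (SE 0.24), which is 13.8-fold (limma adjusted p = 0.000129). In cKO it averaged 80.4 ± 71.0 CPM in CL and 676 ± 142 CPM in IL (SD, n = 3 each), a log2 fold change of 3.52 (SE 0.57), which is 11.5-fold (limma adjusted p = 0.0059). Within single mice the ratio of IL to CL ranged from 5.14 in cKO mouse 3592 to 18.2 in Ctrl mouse 3545 and was above 1 in 6 of 6 mice. The cKO CL library of mouse 3592 was highest of its group for *Msr1*, *Cd36* and *Olr1*. It was also highest of its group in the sums of every marker list but microglia. Among these were infiltrating monocyte (315 CPM), border macrophage (487 CPM), fibroblast and mural (169 CPM), endothelial (201 CPM) and neutrophil markers (1307 CPM), whose part in its values was not tested. Without this library the log2 fold change of *Msr1* in cKO was 4.21 (limma adjusted p = 0.000438, over alternatives 9.78e-05 to 0.0706).

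Between genotypes, *Msr1* was not called. The log2 fold change of cKO against Ctrl was 0.51 in IL (95% interval -0.08 to 1.10, limma adjusted p = 0.624) and 0.78 in CL (95% interval -0.35 to 1.90, limma adjusted p = 0.657). Over alternatives the IL value ranged from 0.27, with the mouse as a random effect, to 0.67, without Ctrl IL 3541. It was 0.31 without Ctrl IL 3546, and called under 0 of 16 alternatives. The CL value moved with single cKO libraries, to 1.46 without that of mouse 788 and to 0.09 without that of mouse 3592, and was called in neither case (limma adjusted p = 0.205 and 0.961, the ends of the range over alternatives). The libraries of the genotypes overlapped in both hemispheres, so these data neither show a difference nor exclude one inside those intervals.

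*Marco* (ENSMUSG00000026390, chromosome 1 from 120474538 to 120505024, minus strand), a collagenous receptor of macrophages that binds bacteria and particles, was near the limit of detection. Its level was 0.0721, 0.150, 0.0353 and 0.373 CPM in Ctrl CL and 0.455, 0.427, 0.573 and 0.556 CPM in Ctrl IL libraries, in the order of mice given above. In cKO it was 0.0553, 0.364 and 0 CPM in CL and 0.234, 0.601 and 0.567 CPM in IL libraries. No library held more than 23 reads of it, and the library at 0 allows up to 0.116 CPM (3 reads, counting error only).

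The Ctrl IL libraries of *Marco* were all above the Ctrl CL libraries, and those of cKO overlapped. The log2 fold changes of IL against CL were 0.40 in Ctrl (SE 0.13, limma adjusted p = 0.0855) and 0.38 in cKO (SE 0.17, limma adjusted p = 0.143), neither of them called. With the mouse as a random effect over all 14 libraries both were called, with a limma adjusted p of 0.00857 in Ctrl and 0.0337 in cKO, and ranges over alternatives of 0.00857 to 0.303 and 0.0337 to 0.444. On this scale a pseudocount of 1 keeps such low values close together. With a pseudocount of 0.1 the same differences were 1.45 and 1.51, and not called. Against Ctrl, cKO IL differed by -0.04 (95% interval -0.34 to 0.27, limma adjusted p = 0.974), and in CL *Marco* did not pass the filter on low values.

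*Colec12* (ENSMUSG00000036103, chromosome 18 from 9707595 to 9882644, plus strand), a membrane collectin that binds sugars on microbes and oxidised lipoprotein, varied more between mice than between the hemispheres of a mouse. Its level in Ctrl CL libraries was 121, 125, 130 and 19.7 CPM in mice 3541, 3545, 3546 and 3551, and in the IL libraries of these mice 264, 195, 243 and 13 CPM. In cKO it was 8.97, 12.3 and 20.7 CPM in the CL libraries of mice 788, 791 and 3592 and 8.22, 12.1 and 21.8 CPM in the IL libraries of mice 784, 791 and 3592. Both libraries of Ctrl mouse 3551 lay in the range of the cKO libraries, while the other Ctrl libraries were all at 121 CPM or above. At 281 to 655 reads in the low libraries, *Colec12* was well above the filter there.

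For *Colec12* the comparisons depend on mouse 3551. Between IL and CL in Ctrl the log2 fold change was 0.61 (95% interval -1.60 to 2.82, limma adjusted p = 0.807). It became 0.98 (SE 0.16, limma adjusted p = 0.0303, over alternatives 0.0303 to 0.982) without both libraries of that mouse and was -0.07 without its CL library and 1.66 without its IL library, neither of them called (limma adjusted p = 0.982 and 0.211). In the mice 3541, 3545 and 3546 the ratio of IL to CL was 2.18, 1.56 and 1.88, in mouse 3551 it was 0.658, and in the cKO mice 791 and 3592 it was 0.989 and 1.05. In cKO the log2 fold change was 0.04 (95% interval -0.76 to 0.85, limma adjusted p = 0.944).

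Between genotypes, *Colec12* had the largest log2 fold changes of the members, and neither was called. Against Ctrl, cKO was at -3.02 in IL (95% interval -5.28 to -0.77, limma adjusted p = 0.333) and at -2.46 in CL (95% interval -3.82 to -1.11, limma adjusted p = 0.133). Without the Ctrl IL library of mouse 3551 the IL value was -4.06 (SE 0.30) and called (limma adjusted p = 0.0034, over alternatives 0.0034 to 0.859). Without the Ctrl CL library of that mouse the CL value was -3.14 (SE 0.25) and called (limma adjusted p = 0.000626, over alternatives 0.000626 to 0.435). With that mouse kept, the Ctrl libraries overlapped those of cKO in both hemispheres, so a difference of genotype and a difference between mice cannot be told apart here. The labels give C57BL/6 for all mice, and the strain background of single mice was not tested. Of the cell type markers, 1 of 6 for oligodendrocytes was called lower in cKO in CL and none of any other list, beside 0.905% of all genes. Median log2 fold changes were -0.72 for oligodendrocytes, -0.79 for border macrophages, -0.85 for endothelial cells and -1.41 for neutrophils. They were -0.22 for infiltrating monocytes and -0.11 for astrocytes, and 0.38 for fibroblasts and mural cells, 0.21 for neurons and 0.05 for microglia. The part of these cell types in the CL value was not tested.

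*Cd36* (ENSMUSG00000002944, chromosome 5 from 17781690 to 17888801, minus strand) takes up long chain fatty acids and oxidised lipoprotein and is a receptor of thrombospondin. Its level in Ctrl was 23.9, 27.3, 30.9 and 21.4 CPM in CL and 155, 126, 131 and 75.7 CPM in IL libraries. In cKO it was 20, 17.8 and 40.0 CPM in CL and 56.6, 72.6 and 121 CPM in IL libraries. All IL libraries were above all CL libraries, with the lowest IL value in cKO mouse 784 and the highest in Ctrl mouse 3541.

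*Cd36* rose in IL in both genotypes. It averaged 25.9 ± 4.12 CPM in Ctrl CL and 122 ± 33.4 CPM in Ctrl IL (SD, n = 4 each), a log2 fold change of 2.24 (SE 0.25), which is 4.74-fold (limma adjusted p = 0.00119). In cKO it averaged 25.9 ± 12.3 CPM in CL and 83.4 ± 33.5 CPM in IL (SD, n = 3 each), a log2 fold change of 1.73 (SE 0.32), which is 3.32-fold (limma adjusted p = 0.00899). Within mice the ratio of IL to CL was between 3.02 and 6.49 and above 1 in 6 of 6. Between genotypes the log2 fold change was -0.55 in IL (95% interval -1.26 to 0.17, limma adjusted p = 0.697) and -0.04 in CL (95% interval -0.62 to 0.54, limma adjusted p = 0.974), with overlapping libraries in both.

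*Scarb1* (ENSMUSG00000037936, chromosome 5 from 125277087 to 125341094, minus strand) is the receptor through which cells exchange cholesterol with high density lipoprotein. It was 95.9, 70.7, 70.4 and 94.5 CPM in Ctrl CL and 95.9, 94.6, 92.8 and 126 CPM in Ctrl IL libraries. In cKO it was 95.8, 92.8 and 66.1 CPM in CL and 116, 109 and 114 CPM in IL libraries. The hemispheres overlapped in Ctrl and did not in cKO.

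The IL against CL differences of *Scarb1* were small. The log2 fold change was 0.39 in Ctrl (SE 0.16, limma adjusted p = 0.186) and 0.49 in cKO (SE 0.15, limma adjusted p = 0.0510), neither of them called. The hemispheres of a mouse deviated together across genes, and with the mouse as a block *Scarb1* was called higher in Ctrl (0.39, limma adjusted p = 0.026) and in cKO (0.58, limma adjusted p = 0.0338), with ranges over alternatives of 0.0163 to 0.563 and 0.0215 to 0.17. The ratio of IL to CL was 1.0003 in Ctrl mouse 3541 and 1.17 to 1.73 in the other 5 mice. Between genotypes it differed by 0.18 in IL (95% interval -0.13 to 0.48) and 0.07 in CL (95% interval -0.37 to 0.51), with limma adjusted p of 0.811 and 0.932.

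*Scarb2* (ENSMUSG00000029426, chromosome 5 from 92441314 to 92506833, minus strand) encodes an abundant protein of the lysosomal membrane. Its level was 213, 225, 165 and 186 CPM in Ctrl CL and 259, 253, 276 and 241 CPM in Ctrl IL libraries. In cKO it was 217, 223 and 185 CPM in CL and 273, 288 and 268 CPM in IL libraries. In both genotypes every IL library was above every CL library, within a narrow range of levels.

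*Scarb2* was called in cKO, with a log2 fold change of 0.47 (SE 0.12), which is 1.39-fold (limma adjusted p = 0.0231). In Ctrl it differed by 0.48 (SE 0.16, limma adjusted p = 0.105) without a call, which a block for the mouse turned into one (limma adjusted p = 0.0159, over alternatives 0.00191 to 0.305). The call in cKO was lost without the IL library of mouse 784 (limma adjusted p = 0.0762) or of mouse 791 (limma adjusted p = 0.086), without both libraries of mouse 791, and with all 14 libraries in a single fit (limma adjusted p = 0.0986), over alternatives from 0.0151 to 0.127. The ratio of IL to CL was between 1.13 and 1.68 and above 1 in 6 of 6 mice. Between genotypes the differences were 0.12 in IL (95% interval -0.14 to 0.38, limma adjusted p = 0.87) and 0.12 in CL (95% interval -0.27 to 0.52, limma adjusted p = 0.85).

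*Olr1* (ENSMUSG00000030162, chromosome 6 from 129485244 to 129507165, minus strand) encodes a lectin-like receptor for oxidised low density lipoprotein. Its level was 2.55, 1.83, 2.58 and 3.92 CPM in Ctrl CL and 8.53, 14.3, 12.5 and 8.95 CPM in Ctrl IL libraries. In cKO it was 2.32, 2.98 and 5.11 CPM in CL and 9.04, 14.3 and 14.8 CPM in IL libraries. Every IL library was above every CL library, on 63 to 546 reads in a library.

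*Olr1* rose in IL in both genotypes. The log2 fold change was 1.77 in Ctrl (SE 0.24), which is 3.42-fold (limma adjusted p = 0.00241), and 1.69 in cKO (SE 0.26), which is 3.23-fold (limma adjusted p = 0.00508). Within mice the ratio of IL to CL ranged from 2.28 to 7.82 and was above 1 in 6 of 6. Between genotypes it differed by 0.20 in IL (95% interval -0.35 to 0.75, limma adjusted p = 0.921) and 0.28 in CL (95% interval -0.30 to 0.85, limma adjusted p = 0.77), with overlapping libraries.

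Across the members, 5 of 7 had IL libraries that did not overlap the CL libraries in Ctrl, where 17.7% of all genes tested did not overlap, and 5 of 7 in cKO, where 42.4% did not. Between genotypes, 0 of 7 did not overlap in IL (10.3% of genes) and 0 of 6 tested did not in CL (10% of genes). With the mouse as a block, 5 of 7 members were called in Ctrl, where 20.5% of genes were called, and 5 of 7 in cKO, where 14.6% were called. That block in cKO rests on the 2 mice with both hemispheres. With the mouse as a random effect over all 14 libraries, 6 of 7 were called in Ctrl, beside 28% of genes, and 6 of 7 in cKO, beside 20.7%. Without both libraries of cKO mouse 791 no member was called between IL and CL in cKO by limma, against 6.87% of 16990 genes, with 5 at an unadjusted p under 0.05, as were 27.8% of genes. The limma adjusted p of *Msr1*, *Cd36*, *Olr1* and *Scarb2* was then 0.0706, 0.0874, 0.0686 and 0.127.

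**Figure D2:**
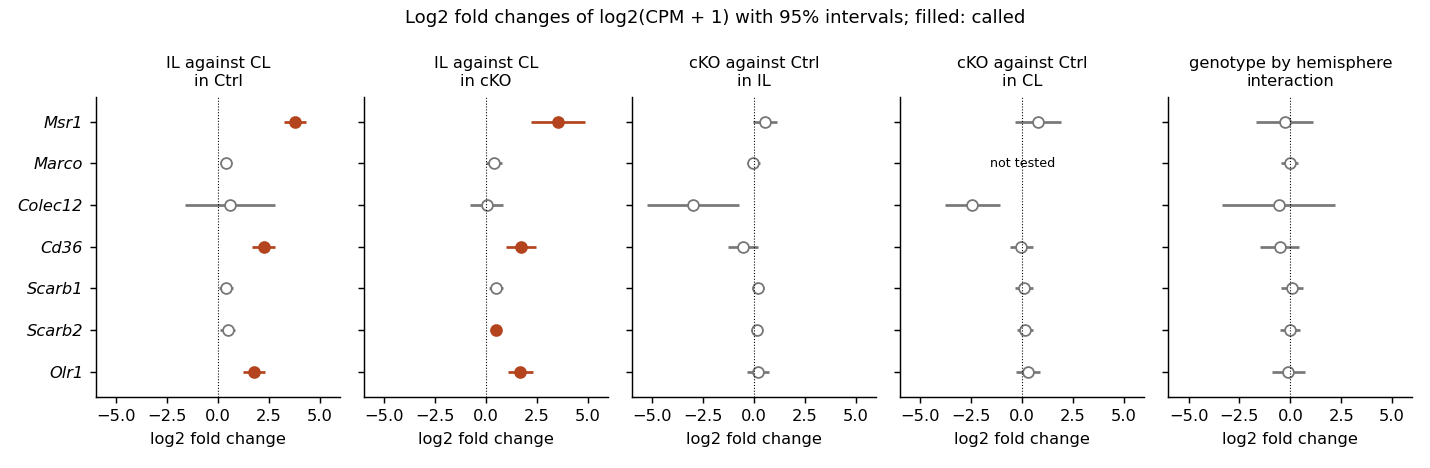
Log2 fold changes of the 7 members on the log2(CPM + 1) scale with 95% intervals in the 5 comparisons, with filled points for called genes and open points for the others. *Msr1*, *Cd36* and *Olr1* are called between hemispheres in both genotypes, no member is called between genotypes, and *Colec12* has the widest interval of the members in 4 comparisons (all but IL against CL in cKO).

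Whether the IL against CL difference itself differed between genotypes was tested as an interaction of genotype and hemisphere in a fit of all 14 libraries. None of 18476 genes was called by limma in it (0%), with 477 genes and 0 members at an unadjusted p under 0.05. The interaction of *Cd36* was -0.53 (95% interval -1.48 to 0.42), that of *Msr1* -0.28 (-1.66 to 1.10) and that of *Colec12* -0.58 (-3.34 to 2.18). For *Olr1* it was -0.09 (-0.89 to 0.71), for *Scarb1* 0.09 (-0.44 to 0.62), for *Scarb2* -0.02 (-0.50 to 0.46) and for *Marco* -0.02 (-0.44 to 0.39). The limma adjusted p was 0.9999 for each member, and the widths of these intervals show that differences of over 1 on the log2 scale could have been missed for *Msr1*, *Cd36* and *Colec12*.

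Levels of different genes were compared per length, as CPM per kb of exon. In Ctrl CL libraries *Scarb2* was highest at 31.4 ± 4.32 CPM per kb (SD, n = 4), above *Colec12* (11.3 ± 6.06), *Scarb1* (9.75 ± 1.67), *Cd36* (7.21 ± 1.15) and *Msr1* (5.67 ± 1.21). Neighbours in this order from *Colec12* to *Msr1* overlapped, and *Olr1* (0.761 ± 0.244) and *Marco* (0.0820 ± 0.0787) stood apart below. In Ctrl IL libraries *Msr1* came first at 76.2 ± 17.3 CPM per kb, above *Scarb2* (40.9 ± 2.34), *Cd36* (34.0 ± 9.29), *Colec12* (20.5 ± 13.1) and *Scarb1* (12.0 ± 1.88), of which neighbours overlapped, and above *Olr1* (3.10 ± 0.784) and *Marco* (0.261 ± 0.0376). *Msr1* thus moved from the fifth place in CL to the first in IL.

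In cKO CL libraries *Scarb2* was again first at 33.2 ± 3.31 CPM per kb (SD, n = 3), followed by *Msr1* (12.7 ± 11.2), *Scarb1* (9.99 ± 1.93) and *Cd36* (7.23 ± 3.42), which overlapped as neighbours. *Colec12* (1.60 ± 0.695) and *Olr1* (0.972 ± 0.408) overlapped, and *Marco* was lowest (0.0726 ± 0.102). In cKO IL libraries all neighbours in the order stood apart, from *Msr1* (107 ± 22.4 CPM per kb) through *Scarb2* (44.0 ± 1.64), *Cd36* (23.2 ± 9.33), *Scarb1* (13.3 ± 0.457), *Olr1* (3.56 ± 0.891) and *Colec12* (1.61 ± 0.804) to *Marco* (0.243 ± 0.105). *Colec12* was in the second place in Ctrl CL, the fourth in Ctrl IL, the fifth in cKO CL and the sixth in cKO IL, and overlapped a neighbour in the first 3 of these groups.

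Over the 14 libraries, which share the 2 hemispheres and 6 of the mice, Pearson's r of log2(CPM + 1) was 0.957 between *Msr1* and *Olr1*, 0.893 between *Msr1* and *Cd36*, and 0.893 between *Cd36* and *Olr1*, as a description. *Colec12* had r from -0.40 to 0.37 with the other members. Among 10624 genes with a mean of at least 5 CPM, those most like *Msr1* were *AI427809* (r = 0.979), *Capn2* (r = 0.978) and *Emilin2* (r = 0.974). Those most like *Olr1* were *Flrt3* (r = 0.979), *Capn2* (r = 0.979) and *Mefv* (r = 0.975), and those most like *Cd36* were *Slc48a1* (r = 0.974), *Runx3* (r = 0.970) and *Arhgap10* (r = 0.969). For *Scarb1* they were *Plk1* (r = 0.976), *Tent4a* (r = 0.963) and *Mybl2* (r = 0.947), of which *Plk1* and *Mybl2* are genes of the cell division cycle. For *Scarb2* they included *Coa5* (r = 0.959) and *Etf1* (r = 0.951). For *Colec12* they were *Riok3* (r = 0.954), *Nme7* (r = 0.930) and *Cd47* (r = 0.923).

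*Riok3*, an atypical protein kinase, is on the same chromosome as *Colec12* (chromosome 18 from 12128741 to 12157387). In Ctrl CL and IL libraries it was at 124 and 129 CPM in mouse 3541, 129 and 121 CPM in mouse 3545, 128 and 128 CPM in mouse 3546, and 102 and 89.5 CPM in mouse 3551, and in cKO libraries it was between 80.3 and 94.9 CPM. *Cd47*, the surface protein that restrains phagocytosis, is on chromosome 16 and was at 107 CPM in both libraries of mouse 3551, 134 to 155 CPM in the other Ctrl libraries and 94.7 to 120 CPM in cKO. Of the 9 other genes with a mean of at least 1 CPM within 1 Mb of *Colec12*, limma called 0 between genotypes in either hemisphere, with 2 at an unadjusted p under 0.05 in IL and 2 in CL, both lower in cKO (*Abhd3* and *Fzd8*). Of all genes tested, 0.67% were called in IL and 0.905% in CL, and 9.25% and 10.2% were at an unadjusted p under 0.05. Among the 9 genes, *Abhd3* and *Thoc1* were picked after their values were seen. In the CL libraries of mice 3541, 3545, 3546 and 3551, *Thoc1* was at 78.9, 92.4, 90.6 and 51.3 CPM and *Abhd3* at 19.6, 24.1, 19.2 and 9.71 CPM, and in cKO CL libraries they were at 53.9 to 59.3 and 7.79 to 11.6 CPM. In IL they were at 64.3, 70.8, 76.6 and 48.7 CPM and at 13.5, 13.2, 14.3 and 6.14 CPM in the same Ctrl mice, and at 46.2 to 50.9 and 4.91 to 6.70 CPM in cKO. Of the 9 genes, mouse 3551 was lowest of the Ctrl mice in both hemispheres for 4 (*Abhd3*, *Ccny*, *Fzd8* and *Thoc1*), highest in both for 1 (*Snrpd1*) and neither for the other 4.

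**Figure D3:**
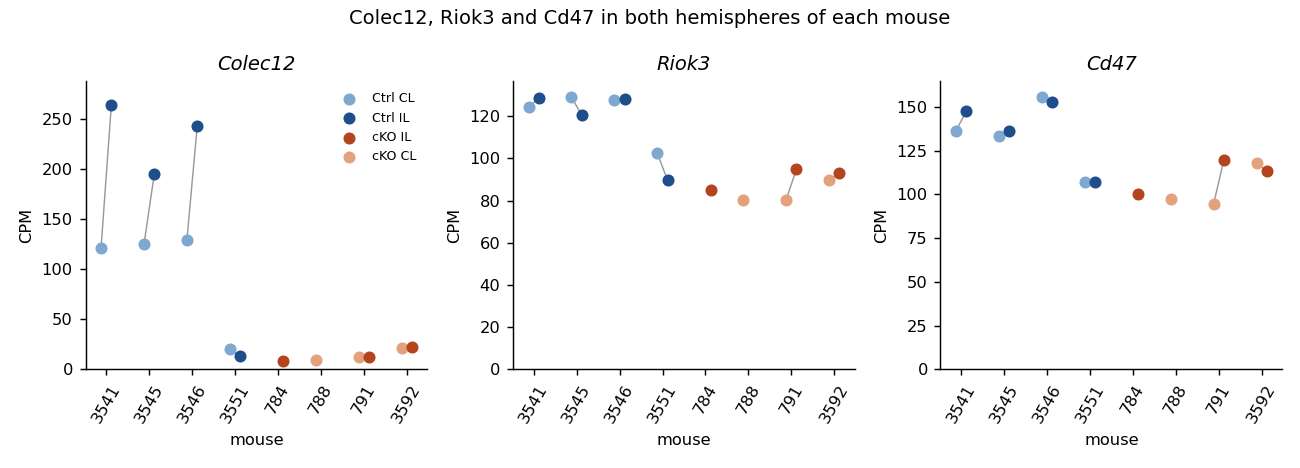
CPM of *Colec12*, *Riok3* and *Cd47* (linear axes from 0) in each of the 8 mice, with CL and IL libraries as separate points joined by a line where a mouse gave both. Both libraries of Ctrl mouse 3551 sit at the level of the cKO mice for *Colec12* (13 and 19.7 CPM) and near it for the other genes.

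A list of 15 other scavenger receptors was counted beside the members. In Ctrl, 3 of 12 tested were called higher in IL and none lower, beside 4.18% of all genes called higher, with a median log2 fold change of 0.41. They were the hyaluronan receptor *Cd44* (1.92, SE 0.28, limma adjusted p = 0.00338), the membrane chemokine and lipoprotein receptor *Cxcl16* (0.96, SE 0.22, limma adjusted p = 0.0291) and the beta-glucan receptor *Clec7a* (0.82, SE 0.14, limma adjusted p = 0.00809). In cKO, 3 of 11 tested were called higher and none lower, beside 12.3% of all genes called higher, with a median of 0.38. They were *Cd44* (2.14, SE 0.25, limma adjusted p = 0.00235), *Cxcl16* (1.14, SE 0.26, limma adjusted p = 0.0186) and the lysosomal *Cd68* (0.52, SE 0.15, limma adjusted p = 0.0426). With the mouse as a block, 6 were called in Ctrl (20.5% of all genes) and 4 in cKO (14.6%). Between genotypes, limma called 0 of 12 in either hemisphere, with 3 in IL and 1 in CL at an unadjusted p under 0.05, where 9.25% and 10.2% of all genes were.

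Ligands, partners, lipid handling genes and regulators of the members formed a list of 25. In Ctrl, 9 of 24 tested were called higher in IL and none lower, beside 4.18% of all genes called higher, with a median log2 fold change of 0.43. The largest differences were those of the *Cd36* ligand *Thbs1* (4.75, SE 0.31, limma adjusted p = 0.000129), the fatty acid binding protein *Fabp5* (4.69, SE 0.56, limma adjusted p = 0.00137), the lipid droplet coat *Plin2* (3.50, SE 0.36, limma adjusted p = 0.000706) and the heme oxygenase *Hmox1* (3.15, SE 0.29, limma adjusted p = 0.000386). In cKO, 11 of 24 were called higher and 1 lower, beside 12.3% and 10.8% of all genes, with a median of 0.34. *Hmox1* (3.03, SE 0.41, limma adjusted p = 0.00332), *Fabp5* (2.83, SE 0.62, limma adjusted p = 0.0155), *Thbs1* (2.48, SE 0.54, limma adjusted p = 0.0148) and *Plin2* (2.38, SE 0.32, limma adjusted p = 0.00332) had the largest differences. The lower gene was *Tlr4*, the receptor of lipopolysaccharide that pairs with *Cd36* and *Tlr6* (-0.52, SE 0.09, limma adjusted p = 0.00729).

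The regulators in the list included *Nr1h3*, the liver X receptor of macrophages, which was called higher in Ctrl (1.75, limma adjusted p = 0.00725) and in cKO (2.06, limma adjusted p = 0.00359). *Pparg*, a nuclear receptor that acts on *Cd36*, was at 0.40 (limma adjusted p = 0.544) in Ctrl and 0.21 (limma adjusted p = 0.699) in cKO, and *Spi1*, which encodes PU.1, at 0.06 (limma adjusted p = 0.874) and 0.04 (limma adjusted p = 0.839). With the mouse as a block, 15 of the list were called in Ctrl (20.5% of all genes) and 11 in cKO (14.6%). Between genotypes, limma called 0 of 24 in IL and 0 of 24 in CL, with 7 and 1 at an unadjusted p under 0.05, again beside 9.25% and 10.2% of all genes. The genotype differences were not called for *Thbs1*, which in IL averaged 1152 ± 167 CPM (SD, n = 4) for Ctrl and 421 ± 231 CPM (SD, n = 3) for cKO. Its log2 fold change was -1.61 with SE 0.37 and a limma adjusted p of 0.141, although the libraries did not overlap.

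**Figure D4:**
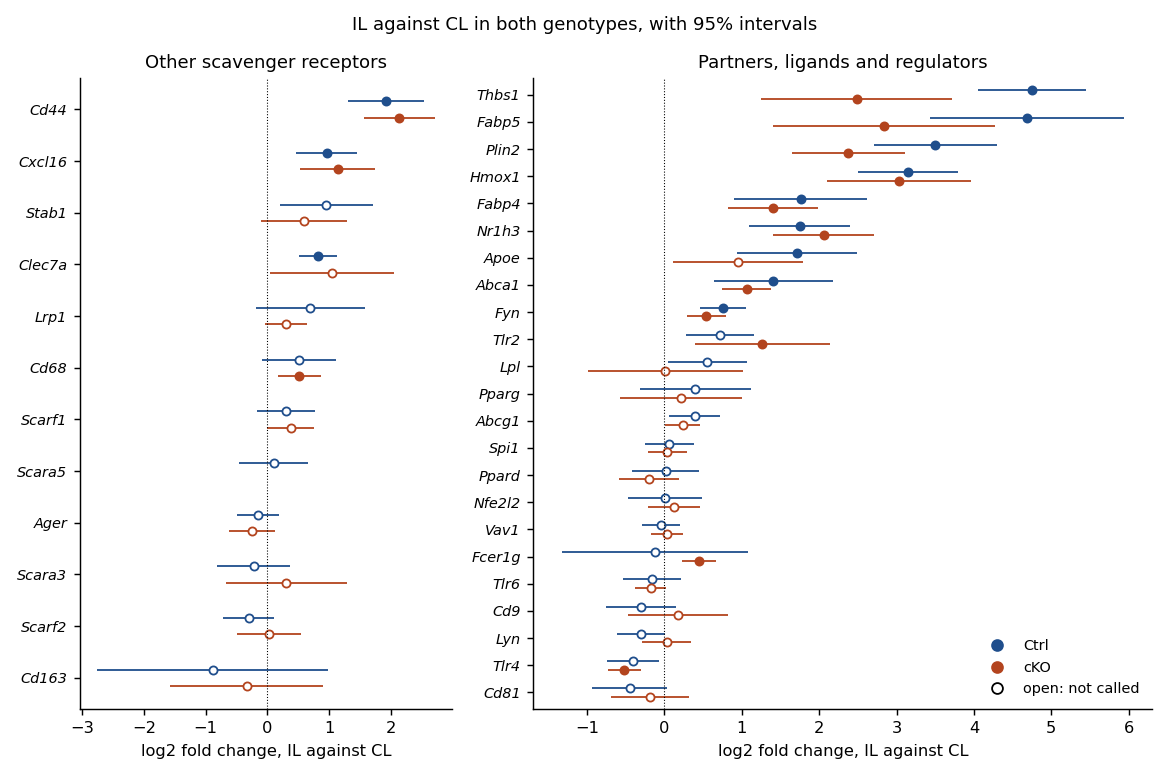
Log2 fold changes of IL against CL in Ctrl and cKO with 95% intervals, for genes of the list of other scavenger receptors and of the list of partners, ligands and regulators, with filled points for called genes. *Thbs1*, *Fabp5*, *Plin2* and *Hmox1* have the largest differences in both genotypes, between 2.38 and 4.75.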

How the data were processed

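The authors mapped reads with STAR to mm10 (GRCm38) and used Partek 8.0; the counter and annotation are not given in the sources used here. The table they deposited as raw counts sums to 1e+06 in every library, so the deposited values are CPM. Whole multiples of 1 read, within 0.03, made up 78.3% to 83.2% of values below 100 reads, too few for a count test. Depth was read from that step.

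Identifiers were matched to symbols (33802 of 33939) and positions to GENCODE vM21. CPM were scaled by an unweighted trimmed mean of M-values (30% of M and 5% of A trimmed) and tested as log2(CPM + 1) with limma 3.58.1 (R 4.3.3, trend, empirical Bayes), on the groups compared. Genes entered at the CPM of 10 reads at median depth (0.288 to 0.353) in a number of libraries equal to the smaller group, with 15 reads in total. On simulated data the fit was tested before use. The number 784 and the number 788 were taken as different mice. The hemispheres were paired by the mouse numbers on the labels. Deviations from group means correlated at 0.184 to 0.603 in all 6 mice with both, against -0.53 to 0.499 in 19 other pairs. These ranges overlapped, so the correlations do not settle single pairs. Ctrl IL 3545 was at 0.444 with its own CL library and 0.499 with that of mouse 3541. The pair of IL 784 and CL 788 was at 0.18, beside 0.184 for mouse 791.

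The text names all 7 members, up to 4 called genes per list and comparison with the largest change, *Nr1h3*, *Pparg*, *Spi1*, *Tlr4*, *Abhd3*, *Ccny*, *Fzd8*, *Snrpd1*, *Thoc1* and the genotype values of *Thbs1* beyond that rule, and the 3 genes most like each member with a mean of at least 1 CPM. Members and lists were chosen with earlier results of these data known. Alternatives were other scalings, pseudocounts, filters, thresholds, fits of all 14 libraries, mouse blocks and left-out libraries; leaving out both libraries of a mouse and the random mouse effect between hemispheres were added after seeing the data. The deleted gene and 1 gene of the lists are not reported here. The main p-values measure the spread between the mice of a group, and for IL against CL they leave out that hemispheres share mice. With the mouse as a fixed block, p-values measure the spread between mice of the IL to CL difference. Tables and plots were made in Python 3.11.15 (pandas 2.3.3, numpy 2.4.6, matplotlib 3.10.9, scipy 1.17.1), and statmod 1.5.0 served the random effect.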

Additional observations from a re-analysis of the deposited data

Results flagged for a closer look

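In 3 of 14 tests, 1 per member and Ctrl group on the log2(CPM + 1) scale, the lowest or highest library was far from the others, with a gap, as a share of the group's range, above Dixon's critical value for 4 values. Chance gives about 1 in 20. All 3 were libraries of Ctrl mouse 3551. *Colec12* was lowest in Ctrl CL at 19.7 CPM, with a gap of 0.965 of the range, and lowest in Ctrl IL at 13 CPM, with a gap of 0.897. *Scarb1* was highest in Ctrl IL at 126 CPM, with a gap of 0.892. The comparisons of *Colec12* with and without these libraries are given above. The cKO groups, with 3 libraries each, were not tested.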

How the results depend on the processing

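The members called between IL and CL in Ctrl were 3 and became 5 with the mouse as a block (adding *Scarb1* and *Scarb2*) and 6 with the mouse as a random effect over all 14 libraries (adding *Marco* also, limma adjusted p = 0.00857), where 28% of all genes were called. The other 54 of 56 counts of members under settings that keep all libraries were within 1.5 times the reported ones. Of the list counts, 107 of 112 under such settings were, and the others were the block counts in Ctrl and 1 other scavenger receptor in Ctrl at a fold change of at least 2. Without both libraries of mouse 3545, 0 other scavenger receptors were called by limma in Ctrl (4 at an unadjusted p under 0.05), and 1 in cKO without the IL library of mouse 784, that of mouse 791 or both of mouse 791. Of the partners, ligands and regulators, 5, 4 and 5 were called in Ctrl without both libraries of mice 3541, 3545 and 3551. In cKO 4 were called without both libraries of mouse 791, where 6.87% of all genes were called. Fewer of all genes were at an unadjusted p under 0.05 in these fits. In Ctrl they were 2765 of 16548, 2379 of 16513 and 2789 of 16196, beside 3596 of 16376 with all libraries. In cKO they were 4721 of 16990 without mouse 791, 5177 of 17178 without IL 784 and 5138 of 17197 without IL 791, beside 6226 of 16758. Without Ctrl IL 3546, 1 other scavenger receptor was called between genotypes in IL. In that fit 2770 of 16492 genes were at an unadjusted p under 0.05, beside 1560 of 16873 with all libraries. Leaving out libraries gave 0 to 5 members called between IL and CL in cKO (4 with all), and 0 to 1 between genotypes in IL and in CL (0 with all). The 0 between IL and CL was without both libraries of mouse 791, where 6.87% of all genes were called. The log2 fold changes that turned sign were all of uncalled differences. *Colec12* between IL and CL in cKO was -0.02 with the deposited CPM and -0.01 with upper-quartile scaling. The interaction of *Marco* was 0.06 with a pseudocount of 0.1 and 0.0023 with the mouse as a random replicate block, and that of *Scarb2* was 0.02 with the deposited CPM, 0.03 without the filter and 0.0012 with that block. Leaving out libraries gave ranges across 0 for *Colec12* between IL and CL (-0.07 to 1.66 in Ctrl, -0.26 to 0.34 in cKO), for cKO against Ctrl of *Marco* in IL (-0.12 to 0.08), *Cd36* in CL (-0.37 to 0.17) and *Scarb1* in CL (-0.05 to 0.25), and for the interaction of *Colec12* (-1.63 to 0.09), *Marco* (-0.14 to 0.11), *Msr1* (-0.97 to 0.37), *Olr1* (-0.35 to 0.17), *Scarb1* (-0.13 to 0.20) and *Scarb2* (-0.15 to 0.08). The causes were not tested. *Msr1*, *Cd36* and *Olr1* were called between IL and CL in Ctrl under all 22 alternatives and in cKO under 17 of 18. In cKO the blocks added *Scarb1*, as given above, and as a random effect also *Marco* (limma adjusted p = 0.0337), and a block changed no other call of a member. *Scarb1* in cKO was called under 7 of 18 alternatives, not with the blocks alone. Depth limits *Marco*, with at most 23 reads in a library.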
